A study of Homo sapiens with 12 samples.

Results

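The genes described here had low RNA in MDA-MB-468 breast cancer cells when 2 things came together, the thyroid hormone receptor beta vector and the thyroid hormone T3, while cells with either one alone kept more of it. They were chosen on measured values. In the authors' normalized counts the mean of the 3 libraries with receptor vector and T3 was at most 0.4 times the lowest of the other 3 group means. That lowest mean had to be 20 or more, and the vehicle mean of receptor cells had to be at least 0.67 times the vehicle mean of empty-vector cells. Symbols that begin with KRT, SERPINB, IGFBP, DSG, CLDN or MT- were left out, which removed KRT4, KRT5 and KRT17. The rule was met by 42 of the 56832 genes listed, and 12007 genes passed its conditions on level, vehicle means and prefix. A gene symbol was given for 37 of the 42, and the other 5 carry clone names.

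The groups were TRB T3 (cells with the stable receptor vector pCDH-TRB, given 10 nM T3 for 24 hours), TRB vehicle (the same cells with NaOH, the vehicle), EV T3 (cells with the empty vector and 10 nM T3) and EV vehicle (the empty vector and NaOH), with 3 libraries each and 12 in all. MDA-MB-468 is a human basal-like breast cancer line, and all cells were first starved of hormone for 24 hours in medium with charcoal-stripped serum and no phenol red. The labels give 1 kind of cells for each vector and do not say if these are a clone or a pool, so TRB against EV compares those 2 lines. They do not state separate cultures for replicate libraries, and p-values then cover only library-to-library spread, possibly technical. The receptor gene THRB stood at 329 ± 16.7 CPM in TRB T3, 140 ± 4.15 in TRB vehicle, 38.5 ± 1.23 in EV T3 and 43.4 ± 0.824 in EV vehicle libraries (counts scaled to library size; SD, n = 3). KLF9, a transcription factor that T3 induces, averaged 27.1 CPM in TRB T3, 2.44 in TRB vehicle, 13.0 in EV T3 and 2.95 in EV vehicle libraries. Gene counts ranged from 10323437 to 11955825 in the T3 libraries and from 4241863 to 8904361 in the vehicle libraries. Mitochondrial ribosomal RNA took 0.0502% to 0.09% of gene counts in T3 libraries and 0.326% to 2.68% in vehicle libraries, so depth and this share cannot be told apart from T3. Of 7 genes listed as high in basal-like cells, EGFR, CDH1, EPCAM, KRT5 and KRT17 averaged over 100 CPM in every group, while KRT6A averaged 1.74 CPM in TRB T3, 7.34 in TRB vehicle, 8.9 in EV T3 and 14.3 in EV vehicle, and KRT14 11.6, 28.9, 70.9 and 70.1 in the same groups. With T3 in TRB cells 5 of the 7 fell (the 4 keratins and EPCAM) and CDH1 rose. Of 3 genes listed as low, PGR had no count, and ERBB2 (133 CPM in TRB T3, 96.3 in TRB vehicle) and ESR1 (10.3 and 7.07) were detected and rose with T3 in TRB cells. Among the leukocyte markers MS4A1 and LYZ, and among the fibroblast markers COL1A2, DCN and LUM, were at 0 in all libraries, and the others had counts. PTPRC had 24 and PDGFRA 30 over all 12 libraries. The fibroblast marker COL1A1 averaged 20.3 CPM in TRB T3, 17.0 in TRB vehicle, 15.0 in EV T3 and 16.1 in EV vehicle, and rose with T3 in TRB cells. Of 7 leukocyte markers 1 was tested (CSF1R), and their summed level was 37.9 to 40.4 CPM in TRB T3, 7.74 to 9.28 in TRB vehicle, 5.47 to 6.62 in EV T3 and 3.9 to 5.28 in EV vehicle libraries. Nearly all of this sum was CSF1R, which rose with T3 in TRB cells. CSF1R averaged 38.8 CPM in TRB T3, 8.19 in TRB vehicle, 5.49 in EV T3 and 4.23 in EV vehicle. The 6 fibroblast markers summed to 19.99 to 21.4 CPM in TRB T3 and 14.8 to 18.0 elsewhere, and the 5 endothelial ones to 6.18 to 6.81 CPM in TRB T3 and 3.9 to 6.004 elsewhere. Among the endothelial markers CDH5 and PECAM1 rose with T3 in TRB cells and KDR fell, with 3 normalized counts on average in TRB T3, 21 in TRB vehicle, 17 in EV T3 and 27.7 in EV vehicle. The part of these markers in the results was not tested.

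Thyroid hormone receptors are nuclear receptors that sit on DNA, often as a pair with a retinoid X receptor, at repeats of a short half-site. Without T3 they hold corepressors, and T3 exchanges these for coactivators, so the best known targets are raised by the hormone. Other genes are lowered by it; the classical examples are the thyrotropin subunit genes of the pituitary and, in the same gland, the deiodinase gene DIO2, which is also among the 42. Several of the 42 encode proteins known from stratified epithelium, such as involucrin and caspase 14, and from the extracellular space. This was not set against the share of such genes among all genes.

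The promoters of SLITRK6, DIO2, MMP7, IVL and CASP14 are shown because they hold the AP-1 motif TGANTCA, a site for dimers of the Jun and Fos families, whose share of promoters is given after them. Each is the RefSeq window of 300 bases on GRCh38.p14, from 250 bases before the RefSeq start of the gene to 50 after it, written 5′ to 3′ on the gene's own strand, with the motif in capitals. The windows lie at chr13:85799370-85799669 on the minus strand for SLITRK6, chr14:80211455-80211754 on the minus strand for DIO2, chr11:102530698-102530997 on the minus strand for MMP7, chr1:152908296-152908595 on the plus strand for IVL and chr19:15049230-15049529 on the plus strand for CASP14.
SLITRK6: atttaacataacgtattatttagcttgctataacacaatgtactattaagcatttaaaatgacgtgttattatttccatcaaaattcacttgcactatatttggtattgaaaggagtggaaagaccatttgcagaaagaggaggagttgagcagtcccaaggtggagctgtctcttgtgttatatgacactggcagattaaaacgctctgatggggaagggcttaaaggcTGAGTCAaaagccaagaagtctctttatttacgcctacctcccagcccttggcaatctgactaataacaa
DIO2: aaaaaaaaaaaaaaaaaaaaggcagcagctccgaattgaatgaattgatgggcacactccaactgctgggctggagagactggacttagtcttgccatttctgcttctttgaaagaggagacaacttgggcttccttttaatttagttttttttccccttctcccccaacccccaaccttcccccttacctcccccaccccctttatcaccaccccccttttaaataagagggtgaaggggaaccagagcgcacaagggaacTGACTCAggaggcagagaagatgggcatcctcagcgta
MMP7: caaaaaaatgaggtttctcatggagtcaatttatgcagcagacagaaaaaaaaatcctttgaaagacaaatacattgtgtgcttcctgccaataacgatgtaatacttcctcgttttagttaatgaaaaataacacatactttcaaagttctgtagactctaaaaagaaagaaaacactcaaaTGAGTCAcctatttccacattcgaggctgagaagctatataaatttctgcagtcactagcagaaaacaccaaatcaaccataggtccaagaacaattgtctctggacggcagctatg
IVL: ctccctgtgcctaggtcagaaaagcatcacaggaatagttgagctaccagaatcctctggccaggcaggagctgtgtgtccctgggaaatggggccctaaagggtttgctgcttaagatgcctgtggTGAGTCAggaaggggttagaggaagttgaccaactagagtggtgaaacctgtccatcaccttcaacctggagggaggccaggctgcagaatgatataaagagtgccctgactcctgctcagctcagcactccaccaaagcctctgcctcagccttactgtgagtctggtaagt
CASP14: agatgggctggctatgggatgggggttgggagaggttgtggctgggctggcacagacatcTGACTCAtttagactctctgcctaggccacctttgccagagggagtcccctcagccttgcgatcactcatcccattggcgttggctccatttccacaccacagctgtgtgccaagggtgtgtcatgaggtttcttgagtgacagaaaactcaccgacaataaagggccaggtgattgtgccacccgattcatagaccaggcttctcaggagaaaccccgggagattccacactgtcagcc

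The RefSeq start need not be the outermost start of the GENCODE gene: it lay 7264 bases inside the GENCODE gene for SLITRK6, 176253 inside for DIO2 and within 100 bases of its start for the other 3. The motif begins 123 bases before the start in IVL and 67 before it in MMP7, and it lies at bases 231 to 237 of the SLITRK6 window, 263 to 269 of the DIO2 window and 61 to 67 of the CASP14 window. MMP7 and IVL also hold the TATA box letters TATAAA, at bases 221 to 226 of both windows. RefSeq promoters were found for 26 of the 37 named members, and TGANTCA (a palindrome, read on both strands) was in 7 of them, SLITRK6, SLC6A14, DIO2, MMP7, ANKRD1, IVL and CASP14. In 13 of the 26 the RefSeq start was more than 100 bases from the GENCODE start, 3 of the 7 among them. The motif's share is 26.9%, against 7.76% of 27305 RefSeq promoters and 4.24% of the 8835 that belong to genes meeting the level and vehicle conditions. The members' promoters were also poorer in CpG, with a median of 17.5 CpG against 27 in those 8835, and 11 of 26 (42.3%) held 10 or fewer, against 10.4%. All 7 matches lay in promoters with 0 to 5 CpG. Among promoters with 10 or fewer CpG, 7 of 11 members held the motif (63.6%), as did 12.3% of 917 genes meeting the conditions and 12.8% of 12458 RefSeq promoters. The motif set and this split by CpG were chosen with the members known, and a match is only a match of letters.

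None of the other motifs was above both of its shares elsewhere. The receptor half-site AGGTCA was in 1 member promoter, that of IVL (3.85%, against 13.9% of RefSeq promoters and 9.36% of those meeting the conditions), and a direct repeat of that half-site with 4 bases between was in 0 of 26, as in 0 of the 8835. The GC box GGGCGG was in 14 (53.8%, against 44.6% and 71.7%), the TEAD letters GGAATG in 3 (EDN2, CELF2 and ANKRD1; 11.5%, against 14.0% and 10.6%) and TATAAA in 2 (7.69%, against 11.95% and 4.9%). Both strands were searched. These windows say nothing about sites further away.

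Across the 42 members the TRB T3 mean was 0.159 to 0.4 times the lowest of the other 3 means, with a median of 0.312, so it was 2.5 to 6.27 times below that mean and 3.2 times below it at the median. These values chose the members and are given without a test. Every TRB T3 library was below every other library for all 42 members; 13.0% of the 14549 genes tested show that order, and nothing is read from the members' count because the rule used the same groups. The lowest of the 3 other means ranged from 21 to 6015 normalized counts, with a median of 88.7 against 314 over the 12007 genes; it was under 50 for 11 members and over 500 for 7. Summed over the members, each TRB T3 library held 5374 to 6400 normalized counts, each TRB vehicle library 24047 to 25576, each EV T3 library 18526 to 19115 and each EV vehicle library 22955 to 23686. In bulk RNA, fewer cells with a transcript and less of it in each cell cannot be told apart. The reverse pattern, a TRB T3 mean at least 2.5 times the highest of the others, was met by 75 of the 12007 genes.

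**Figure D1:**
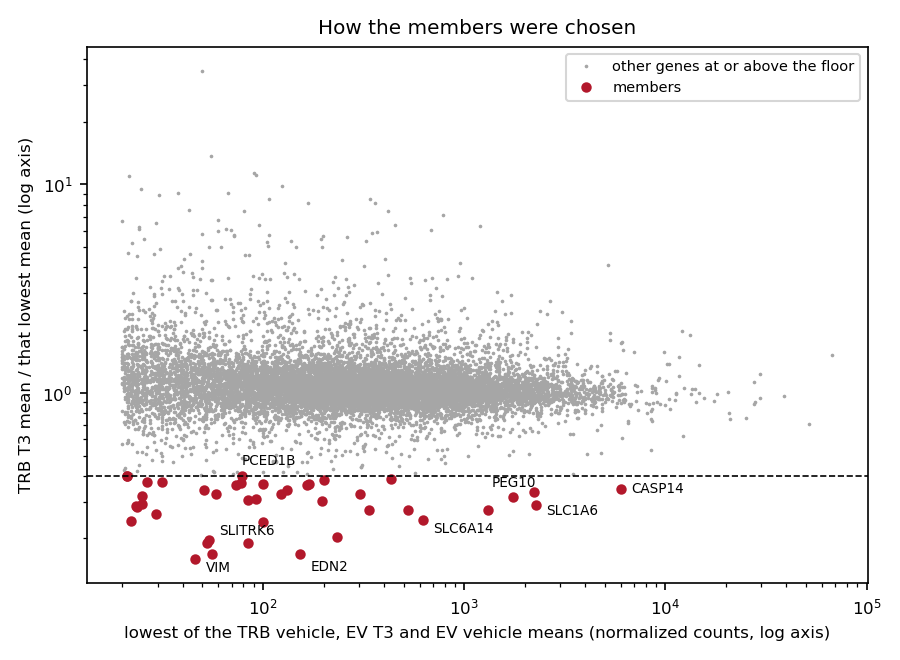
Ratio of the TRB T3 mean to the lowest of the TRB vehicle, EV T3 and EV vehicle means (vertical log axis) against that lowest mean in normalized counts (horizontal log axis), for the genes that meet the conditions on level, vehicle means and prefix. The dashed line is the ratio of 0.4, and the 42 members (red) lie on or below it, over lowest means of 21 to 6015.

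At the threshold itself the members just inside were FOXQ1 (ratio 0.382), EFEMP1 (0.388) and PCED1B (0.4), and the genes just outside were MCAM (0.401), FAT3 (0.409) and TGFB1 (0.409). PCED1B averaged 31.3 normalized counts in TRB T3, 90.7 in TRB vehicle, 79.3 in EV T3 and 78.3 in EV vehicle libraries, while MCAM averaged 19.7, 62.7, 49 and 50.3 in the same groups. The 2 genes show the same order of TRB T3 below the rest, so the edge of the set is a matter of the ratio chosen. With a ratio of 0.3 the rule kept 18 genes, and with 0.5 it took 88.

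**Figure D2:**
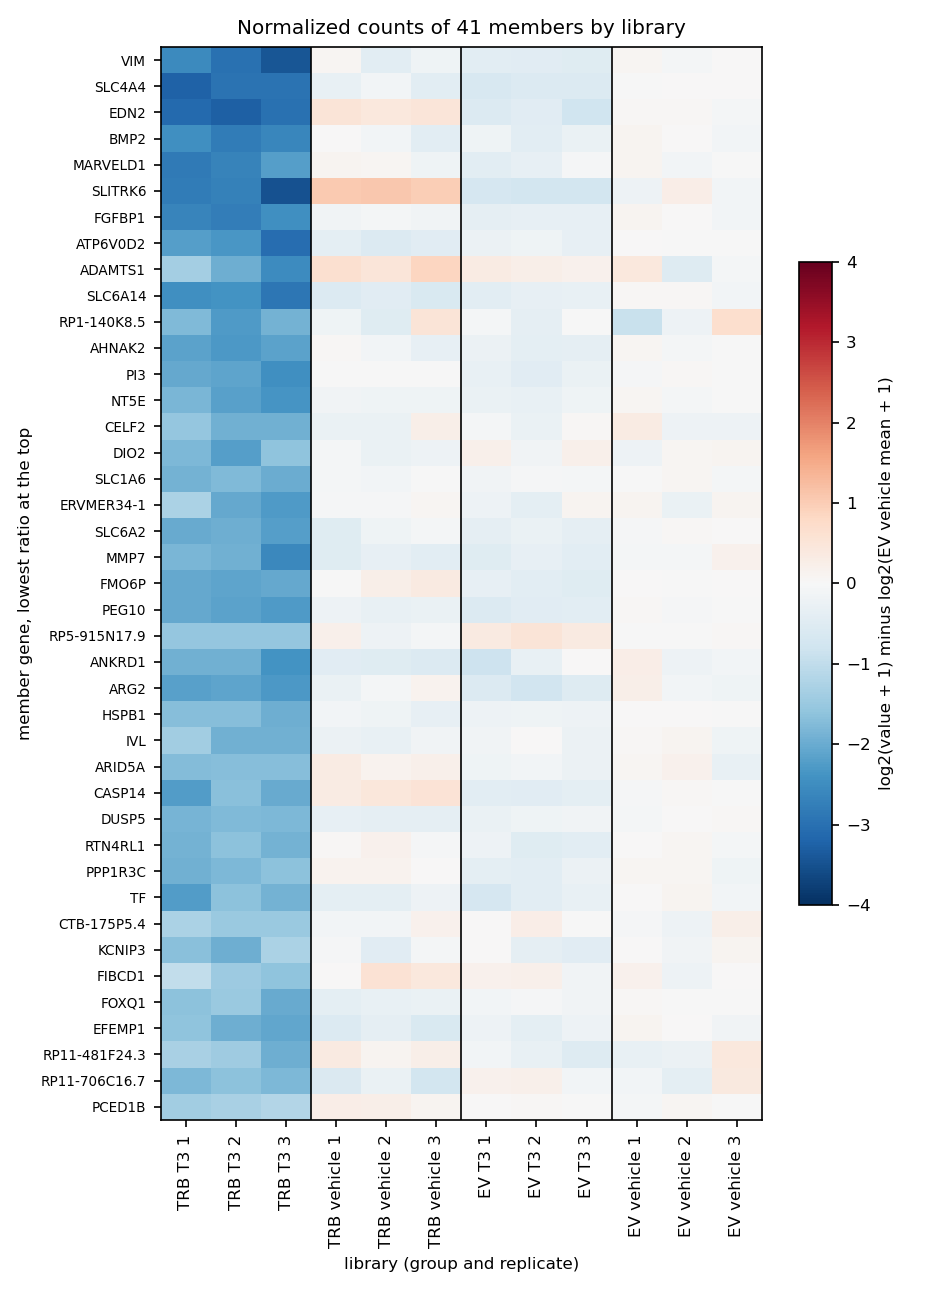
Normalized counts of 41 of the 42 members (rows, lowest ratio at the top) in each of the 12 libraries (columns), as log2(value + 1) minus log2 of the EV vehicle mean + 1; blue is lower and red higher. The 3 TRB T3 columns are the lowest in every row, and SLITRK6, EDN2 and ADAMTS1 are the members most clearly above the EV vehicle mean in TRB vehicle.

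Among the cell-surface members, SLITRK6 gave the largest contrast between the treatments of TRB cells. SLITRK6 (chr13:85792787-85806683, minus strand) encodes a leucine-rich repeat membrane protein that regulates neurite growth and binds receptor tyrosine phosphatases. It had 12, 13 and 7 normalized counts in the TRB T3 libraries, 186, 189 and 178 in TRB vehicle, 56, 53 and 53 in EV T3, and 78, 107 and 83 in EV vehicle. The TRB T3 libraries were lowest and the TRB vehicle libraries highest, with no overlap among the 4 groups, and the TRB T3 mean was 17.3 times below the TRB vehicle mean and 5.06 times below the EV T3 mean. NT5E (chr6:85449584-85495791, plus strand), the ecto-enzyme CD73 that turns AMP into adenosine, had 439, 346 and 303 normalized counts in TRB T3, 1426, 1404 and 1383 in TRB vehicle, 1289, 1262 and 1401 in EV T3, and 1669, 1478 and 1548 in EV vehicle. Its TRB vehicle and EV T3 libraries overlapped and the TRB T3 libraries lay far under both. MARVELD1, a tetraspan membrane protein, had 8, 9 and 13 in TRB T3, 69, 67 and 56 in TRB vehicle, 47, 50 and 61 in EV T3, and 68, 59 and 63 in EV vehicle. The 9 libraries outside TRB T3 overlapped one another for this gene. RTN4RL1, a relative of the Nogo receptor, and FIBCD1, a receptor for acetylated sugars, averaged 26.7 and 10 normalized counts in TRB T3, 98.7 and 34.3 in TRB vehicle, 73.7 and 28.3 in EV T3, and 94.7 and 26.7 in EV vehicle.

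Of the members, 8 are described here as secreted proteins, and the growth factor and peptide genes among them had the lowest ratios. The share of secreted proteins, or of the other protein classes, over all genes was not taken. EDN2 (chr1:41478775-41484673, minus strand), the vasoconstrictor peptide endothelin-2, had 26, 23 and 28 normalized counts in TRB T3, 327, 311 and 320 in TRB vehicle, 157, 169 and 133 in EV T3, and 237, 238 and 216 in EV vehicle. As with SLITRK6 the 4 groups did not overlap, and the order was the same, with a TRB T3 mean 12.4 times below TRB vehicle. BMP2 (chr20:6767664-6780280, plus strand), a ligand of the TGF-beta superfamily, had 18, 14 and 16 in TRB T3, 103, 96 and 77 in TRB vehicle, 91, 77 and 85 in EV T3, and 110, 103 and 95 in EV vehicle. FGFBP1 (chr4:15935569-15938740, minus strand), a carrier that frees fibroblast growth factors from the matrix, had 47, 43 and 53 in TRB T3, 269, 280 and 265 in TRB vehicle, 230, 237 and 237 in EV T3, and 316, 296 and 274 in EV vehicle. For both genes the TRB vehicle libraries were at or near the EV levels and the TRB T3 mean was more than 4 times below each other mean.

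The other secreted members were matrix proteases, a protease inhibitor, a matrix protein and a carrier. ADAMTS1, a secreted metalloprotease that cleaves proteoglycans, had 8, 5 and 3 normalized counts in TRB T3, 35, 31 and 41 in TRB vehicle, 28, 26 and 25 in EV T3, and 30, 15 and 21 in EV vehicle. Its ratio of 0.242 rests on at most 8 normalized counts in a TRB T3 library, and the EV T3 and EV vehicle libraries overlapped below those of TRB vehicle. MMP7, the small metalloprotease matrilysin, had 31, 29 and 18 in TRB T3, 81, 89 and 84 in TRB vehicle, 80, 90 and 84 in EV T3, and 106, 106 and 126 in EV vehicle. PI3, the elastase inhibitor elafin, had 158, 154 and 120 in TRB T3, 656, 660 and 653 in TRB vehicle, 544, 481 and 546 in EV T3, and 642, 688 and 654 in EV vehicle. For PI3 the vehicle libraries of both lines lay together, and for MMP7 the TRB vehicle and EV T3 libraries did. EFEMP1, the matrix glycoprotein fibulin-3, averaged 167 ± 29.5, 431 ± 38.8, 513 ± 38.4 and 613 ± 50.7 normalized counts in TRB T3, TRB vehicle, EV T3 and EV vehicle, and TF, the iron carrier transferrin, 36.7 ± 7.51, 110 ± 8.39, 100 ± 13.2 and 139 ± 10.5 (SD, n = 3).

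**Figure D3:**
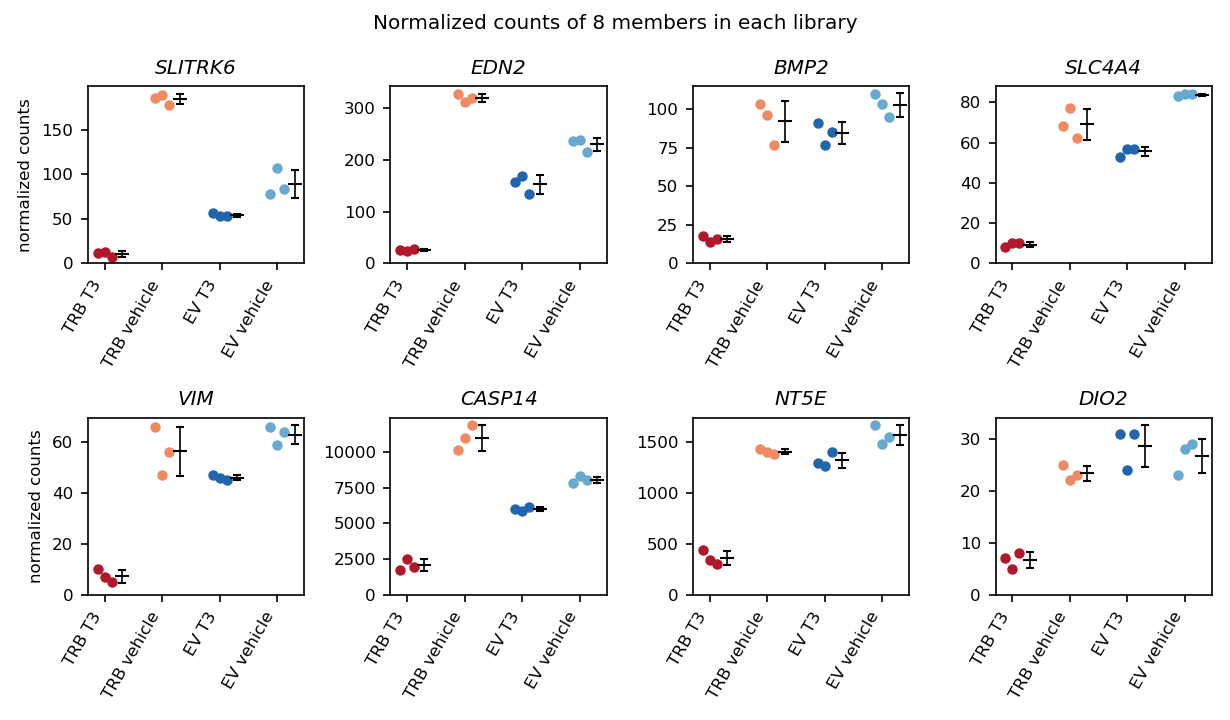
Normalized counts of 8 members in each library (points), with the mean and SD of the 3 libraries of each group beside them (black), for TRB T3, TRB vehicle, EV T3 and EV vehicle. In all 8 panels the 3 TRB T3 points lie below every other point; SLITRK6, EDN2 and CASP14 are highest in TRB vehicle, and in all panels but that of DIO2 the EV T3 points lie below the EV vehicle points.

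Membrane transporters and a proton pump subunit formed a further group of 5. SLC4A4 (chr4:71062667-71572087, plus strand), a sodium bicarbonate cotransporter, had 8, 10 and 10 normalized counts in TRB T3, 68, 77 and 62 in TRB vehicle, 53, 57 and 57 in EV T3, and 83, 84 and 84 in EV vehicle. The groups did not overlap, and EV vehicle was the highest. SLC6A14, an importer of neutral and basic amino acids, had 164, 170 and 121 in TRB T3, 616, 654 and 594 in TRB vehicle, 667, 717 and 733 in EV T3, and 938, 931 and 833 in EV vehicle. SLC1A6, the glutamate transporter EAAT4, had 652, 710 and 617 in TRB T3, 2280, 2231 and 2412 in TRB vehicle, 2188, 2347 and 2305 in EV T3, and 2393, 2580 and 2284 in EV vehicle. The 9 libraries outside TRB T3 thus overlapped for SLC1A6, whereas SLC6A14 was lower in TRB vehicle than in either EV group. SLC6A2, the noradrenaline transporter, averaged 59.3, 211, 197 and 249 normalized counts in TRB T3, TRB vehicle, EV T3 and EV vehicle. ATP6V0D2, a subunit of the vacuolar proton pump known from osteoclasts, averaged 24, 100, 117 and 138 in the same groups.

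The epidermal, cytoskeletal and stress proteins held the most abundant member and the one with the lowest ratio. CASP14 (chr19:15049384-15058293, plus strand), a protease of the cornifying epidermis, had 1729, 2515 and 1978 normalized counts in TRB T3, 10100, 10960 and 11892 in TRB vehicle, 6030, 5865 and 6150 in EV T3, and 7845, 8278 and 8043 in EV vehicle. Per kilobase of annotated exon it averaged 593 normalized counts in TRB T3, 3141 in TRB vehicle, 1720 in EV T3 and 2304 in EV vehicle, more than any other member in every one of these groups. Its groups did not overlap, and the order was again TRB vehicle, EV vehicle, EV T3 and TRB T3. IVL, the cornified envelope protein involucrin, had 22, 15 and 15 normalized counts in TRB T3, 51, 48 and 54 in TRB vehicle, 54, 60 and 51 in EV T3, and 61, 65 and 53 in EV vehicle. VIM (chr10:17228259-17237593, plus strand), the mesenchymal intermediate filament vimentin, had 10, 7 and 5 in TRB T3, 66, 47 and 56 in TRB vehicle, 47, 46 and 45 in EV T3, and 66, 59 and 64 in EV vehicle, and its ratio of 0.159 was the lowest of all members. HSPB1, a small heat shock protein, had 774, 789 and 653 in TRB T3, 2363, 2257 and 2046 in TRB vehicle, 2220, 2265 and 2230 in EV T3, and 2563, 2585 and 2499 in EV vehicle. Outside TRB T3 the libraries of IVL overlapped, while for HSPB1 EV vehicle lay above the rest. AHNAK2, a very large scaffold protein, averaged 91.7, 388, 335 and 422 normalized counts in TRB T3, TRB vehicle, EV T3 and EV vehicle. ANKRD1, a nuclear ankyrin repeat protein known from heart, averaged 19, 58.3, 65.7 and 82.7 in the same groups.

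Intracellular enzymes and regulators had ratios of 0.282 to 0.382. DIO2 (chr14:80197527-80387757, minus strand), the type 2 deiodinase that makes T3 from thyroxine, had 7, 5 and 8 normalized counts in TRB T3, 25, 22 and 23 in TRB vehicle, 31, 24 and 31 in EV T3, and 23, 28 and 29 in EV vehicle. The 9 libraries outside TRB T3 overlapped, and the level was low in all groups. ARG2, the mitochondrial arginase, had 41, 43 and 37 in TRB T3, 156, 177 and 208 in TRB vehicle, 128, 111 and 131 in EV T3, and 220, 175 and 168 in EV vehicle. PPP1R3C, which brings protein phosphatase 1 to glycogen, averaged 61.7, 231, 169 and 214 in TRB T3, TRB vehicle, EV T3 and EV vehicle. DUSP5, a nuclear phosphatase of ERK, averaged 60, 166, 185 and 213, and FMO6P, a pseudogene of the flavin monooxygenases, 28.7, 143, 92.7 and 124 in the same groups. For ARG2 and PPP1R3C the EV T3 libraries lay under both vehicle groups, while for DUSP5 the TRB vehicle libraries lay under both EV groups. PEG10 (chr7:94656325-94669695, plus strand), an imprinted gene derived from a retrotransposon, had 590, 558 and 507 in TRB T3, 2102, 2008 and 2052 in TRB vehicle, 1656, 1772 and 1817 in EV T3, and 2522, 2372 and 2437 in EV vehicle, with no overlap among groups. The transcription factor FOXQ1 averaged 76.7, 201, 237 and 252, and the AT-rich interaction domain protein ARID5A 44.7, 175, 131 and 148, in TRB T3, TRB vehicle, EV T3 and EV vehicle. The splicing regulator CELF2 averaged 6.67, 24, 23.7 and 25.3 and the calcium sensor KCNIP3 11.7, 32.7, 31.3 and 37.3 in these groups. ERVMER34-1, an envelope gene of an endogenous retrovirus, averaged 7.33, 27.7, 25 and 27.7. The 5 loci with clone names had means of 7.67 to 28.7 in TRB T3, 21 to 77.7 in TRB vehicle, 21 to 83.3 in EV T3 and 25.3 to 78 in EV vehicle libraries, with ratios of 0.261 to 0.397.

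Replicates varied most where the members were lowest. The median coefficient of variation over the 42 members was 15.9% in TRB T3, 7.87% in TRB vehicle, 6.7% in EV T3 and 7.12% in EV vehicle libraries. Of the 37 members with a match in the annotation 36 are protein coding. The 37 lie on 19 chromosomes, 7 of them on chromosome 10, which was not set against the share of all genes there. Their exons sum to a median of 3625 bases, against 5234 over the 11389 annotated genes that met the level and vehicle conditions, and their median GC content of 48.2% compares with 48.0%. In 16 members another annotated gene overlaps, and no source used here says if reads were counted by strand, so reads of such pairs (VIM and VIM-AS1, PEG10 and SGCE, ARG2 and VTI1B among them) may not be separable.

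Without T3 the members differed among themselves in how the receptor cells compared with empty-vector cells. The TRB to EV ratio of vehicle means ranged from 0.69 in SLC6A14 to 2.06 in SLITRK6, with a median of 0.933 against 0.999 over the 12007 genes. Since the rule bounded this ratio from below at 0.67, it is given as a description. For EDN2, SLITRK6, ADAMTS1, CASP14 and PCED1B every TRB vehicle library was above every EV vehicle library (11.9% of members, against 14.4% of genes tested), and for 13 members every TRB vehicle library was below (31.0%, against 14.6%). In all 5 each TRB vehicle library was above every EV T3 library as well. Their lowest values lay in TRB T3, as in all members, and the rule fixed that order for the means. Nothing is read from the number of these genes. The 13 lower ones included SLC4A4, SLC6A14, NT5E, PEG10, HSPB1, MMP7, EFEMP1 and FOXQ1.

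T3 lowered part of the members in empty-vector cells as well. Of the 42, 15 were lower with T3 in EV cells and 0 higher by the quasi-likelihood test of edgeR (adjusted p below 0.05 by Benjamini and Hochberg, over 14549 genes), which is 35.7% against 1.7% of genes tested that were lower and 2.84% that were higher. Without adjustment 23 had p below 0.05, all of them lower. The log2 fold change was below 0 in 35 of 42 (83.3%, against 50.3% of genes tested), with a median of -0.27 against -0.000737, while in TRB cells, where the choice of members fixed the direction, the median was -1.90. The rule also limits how far a member can be lower in EV cells, so nothing is read from the smaller size there. In 25 members every EV T3 library was below every EV vehicle library (59.5%, against 9.64%), and in 1 every EV T3 library was above (9.72% of genes tested). Both EV means entered the rule through the lowest of the 3 means, which was the EV T3 mean in 26 members, the TRB vehicle mean in 13 and the EV vehicle mean in 3. The share among other genes that T3 lowered in TRB cells was not taken. Among such genes, ARID5B (-0.27, edgeR adjusted p = 4.28e-05) and AHNAK (-0.23, 7.64e-05) were also lower with T3 in EV cells. SLC1A4 (-0.09, 0.514) did not pass there.

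The largest decrease in EV cells was that of SLITRK6, whose EV T3 and EV vehicle means were 54 ± 1.73 and 89.3 ± 15.5 normalized counts (SD, n = 3), a log2 fold change of -0.74 with an SE of 0.153 (edgeR adjusted p = 0.000635). EDN2 averaged 153 ± 18.3 in EV T3 and 230 ± 12.4 in EV vehicle (log2 fold change -0.59, SE 0.0972, adjusted p = 1.6e-05), and PEG10 1748 ± 83.1 and 2444 ± 75.2 (-0.48, SE 0.0423, adjusted p = 3.79e-14). The transporter SLC4A4 stood at -0.59 (adjusted p = 0.0123), SLC6A14 at -0.34 (7.64e-05) and SLC6A2 at -0.34 (0.0155). Elafin (PI3) stood at -0.34 (adjusted p = 9.94e-05), ARG2 at -0.57 (0.000381), AHNAK2 at -0.32 (0.00366), FGFBP1 at -0.31 (0.0123) and HSPB1 at -0.19 (0.00925). TF (-0.45, adjusted p = 0.0185), FMO6P (-0.42, 0.0323) and PPP1R3C (-0.32, 0.0375) passed with larger p. In all 15 every EV T3 library was below every EV vehicle library. Several members missed the threshold with decreases of similar size: MMP7 stood at -0.43 (adjusted p = 0.0508), VIM at -0.45 (0.152), CASP14 at -0.42 (0.104) and NT5E at -0.24 (0.167). DIO2 (0.08, SE 0.243, adjusted p = 0.919), ADAMTS1 (0.31, SE 0.27, 0.632), FIBCD1 (0.10, SE 0.248, 0.894) and PCED1B (0.01, SE 0.142, 0.982) had estimates above 0 that did not pass, and with thinned counts those of ADAMTS1, FIBCD1 and PCED1B were below 0.

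Of the 15 calls 7 were kept when each EV library in turn was left out: PEG10, EDN2, SLC6A14, PI3, ARG2, SLITRK6 and AHNAK2. The count was 9 without EV vehicle replicate 2, 9 by DESeq2, and 4 with all libraries thinned to the shallowest, where PEG10, SLC6A14 and PI3 kept their calls and 37 of 42 members were still below 0. MMP7 passed with RLE size factors (adjusted p = 0.0495) and CASP14 by DESeq2 (0.0261). The part of the lower mitochondrial ribosomal RNA share of T3 libraries was not tested.

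**Figure D4:**
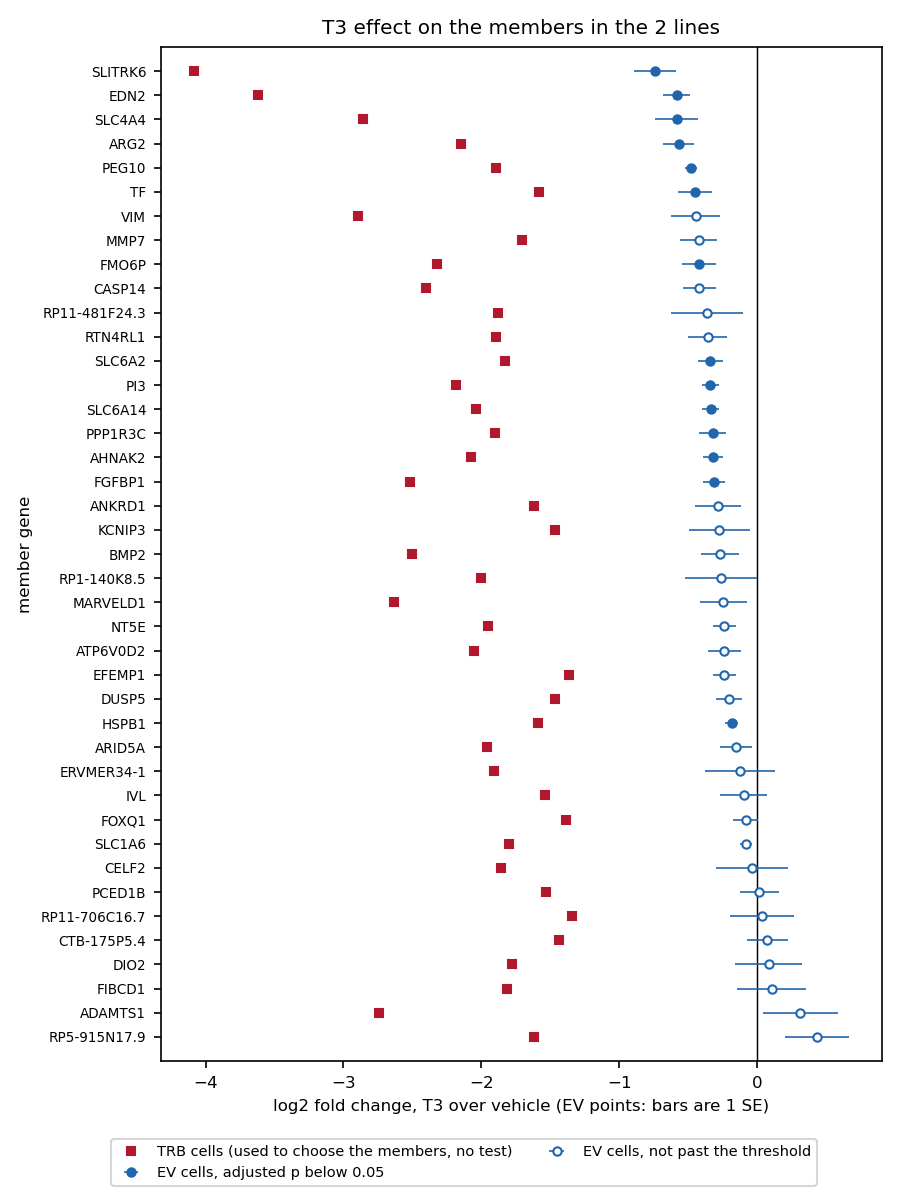
Log2 fold change of T3 over vehicle for 41 of the 42 members, in TRB cells (red squares, used to choose the members and given without a test) and in EV cells (blue circles with bars of 1 SE; filled where the adjusted p was below 0.05). The EV values run from -0.74 in SLITRK6 to 0.43 in a clone-named locus and the TRB values from -4.09 to -1.34.

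Genes with symbols like the members' moved in both directions with T3 in TRB cells. Relatives were taken as genes that share a member's symbol stem or stand with it in a pathway list, so a few, such as the kinase BMP2K, are not of the member's protein family; 27 members had 189 such relatives, and 90 of these were expressed enough to test. T3 in TRB cells lowered 27 of them (30%, against 21.9% of genes tested) and raised 20 (22.2%, against 22.4%), with a median log2 fold change of -0.14 against -0.00168. In 6 the decrease was 2-fold or more. The smallest p-values belonged to ARID5B (log2 fold change -1.26, adjusted p = 9.27e-35), AHNAK (-0.96, 2.87e-31), DUSP10 (1.78, 7.16e-28), DUSP4 (0.87, 5.57e-26), SLC4A7 (0.94, 1.06e-23) and SLC1A4 (-1.04, 1.94e-21). The relatives of ARID5A, AHNAK2 and SLC1A6 in this group fell, and those of DUSP5 and SLC4A4 rose. In counts thinned to equal depth, 15 of 80 tested relatives fell and 16 rose, against 14.1% and 14.4% of genes tested. More falls than rises were thus not seen there.

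The relatives of single members differed. ARID5B had 677, 624 and 649 normalized counts in TRB T3, 1587, 1575 and 1516 in TRB vehicle, 1132, 1135 and 1231 in EV T3, and 1525, 1335 and 1388 in EV vehicle, and the large scaffold AHNAK had 4416, 4406 and 4674, 9109, 8464 and 8759, 8823, 8195 and 8451, and 9897, 9865 and 10102 in the same 4 groups. DUSP10, another phosphatase of MAP kinases, had 395, 404 and 348 in TRB T3, 112, 115 and 105 in TRB vehicle, 135, 133 and 124 in EV T3, and 95, 109 and 122 in EV vehicle. ARID5B and AHNAK were lowest in TRB T3, as their member relatives were, and DUSP10 was highest there. Of the 24 relatives of DUSP5, 4 rose, 3 fell, 11 did not pass and 6 were not tested. The caspases beside CASP14 also split, with 2 higher (CASP1 at 0.56 and CASP4 at 0.25), 3 lower and 4 that did not pass.

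The endothelin axis holds 3 ligands, their receptors and the converting enzymes that cut the active peptides out of their precursors. EDN1, the other ligand that was measured, fell with T3 in TRB cells (log2 fold change -0.90, adjusted p = 5.21e-12), with 125, 122 and 92 normalized counts in TRB T3, 202, 206 and 227 in TRB vehicle, 268, 236 and 244 in EV T3, and 256, 237 and 249 in EV vehicle. The converting enzyme ECE1 rose (0.71, adjusted p = 2.49e-21), with means of 1146 in TRB T3, 702 in TRB vehicle, 751 in EV T3 and 783 in EV vehicle. EDN3 had no count in any library, and the receptors EDNRA and EDNRB had 2 and 1 counts over all 12. Of the partners of SLITRK6, the receptor phosphatase PTPRS fell (-0.74, adjusted p = 3.81e-20) and PTPRF rose (0.46, adjusted p = 1.22e-15), while SLITRK1, SLITRK2 and SLITRK3 had no counts and SLITRK4 and SLITRK5 had 1 and 22 over all libraries. Both lists were drawn up around members already known.

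The nearest tested genes on each side of the 37 placed members were compared next. Many were not close: GATA3, which fell, lies 2723194 bases from CELF2. MIR17HG, which rose, lies 5541137 bases from SLITRK6, the largest distance. The calls were not split by distance. T3 in TRB cells lowered 30 of these 72 neighbours (41.7%, against 21.9% of genes tested) and raised 14 (19.4%, against 22.4%). Leaving out 5 neighbours that overlap a member, 27 of 67 fell and 12 rose. Decreases of 2-fold or more were found in 5: AMIGO2 (log2 fold change -1.38), which overlaps PCED1B on the opposite strand, SYDE1 (-1.46), PROM1 (-1.30), ADGRE2 (-1.23) and CYYR1 (-1.18). PROM1, the stem cell surface protein CD133, lies 24336 bases from FGFBP1 and had 953, 920 and 880 normalized counts in TRB T3, 2161, 2307 and 2319 in TRB vehicle, 1760, 1753 and 1733 in EV T3, and 2006, 2075 and 1984 in EV vehicle. It was lowest in TRB T3, with no overlap. With libraries thinned to equal depth 15 of 70 neighbours fell and 7 rose, against 14.1% and 14.4% of genes tested.

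SLC1A6 and CASP14 are neighbours on chromosome 19, with 26394 bases between them, and were the only pair of members so close; the next nearest pair, ANKRD1 and PPP1R3C on chromosome 10, lies 707166 bases apart. The tested genes that flank the pair were lower with T3 in TRB cells too. ADGRE2, an adhesion receptor, had 50, 55 and 53 normalized counts in TRB T3, 103, 119 and 148 in TRB vehicle, 135, 90 and 110 in EV T3, and 155, 113 and 128 in EV vehicle (log2 fold change in TRB cells -1.23, adjusted p = 3.91e-10). SYDE1, a GTPase activating protein, had 57, 62 and 60 in TRB T3, 159, 173 and 160 in TRB vehicle, 164, 164 and 131 in EV T3, and 119, 151 and 131 in EV vehicle (-1.46, adjusted p = 5.05e-17). Both were lowest in TRB T3 with no overlap. ILVBL, which overlaps the end of SYDE1 by a few bases, did not pass (-0.13, adjusted p = 0.176), and NOTCH3 fell by less (-0.44, adjusted p = 7.99e-15). In EV cells T3 changed neither ADGRE2 (-0.21, adjusted p = 0.458) nor SYDE1 (0.17, adjusted p = 0.479) past the threshold.

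**Figure D5:**
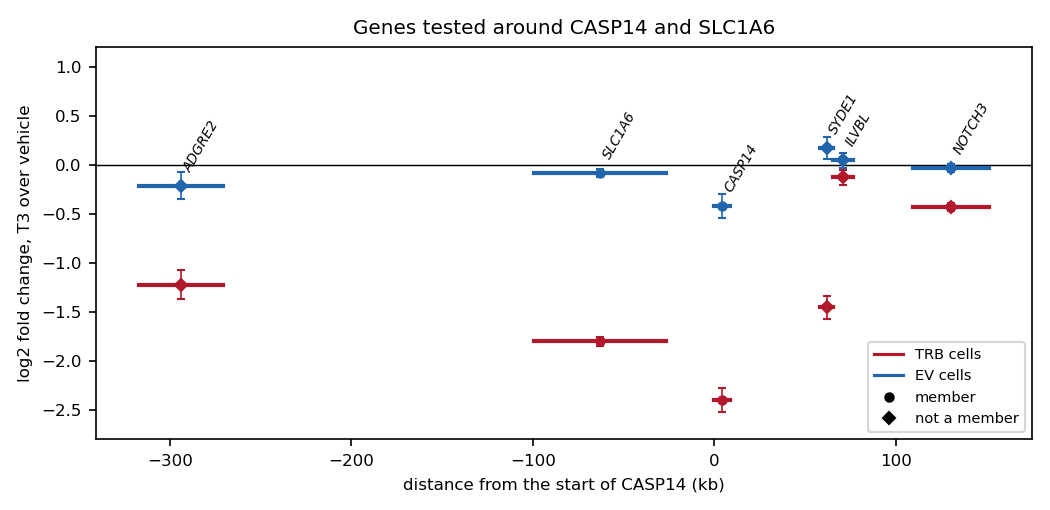
Log2 fold change of T3 over vehicle (vertical axis; error bars 1 SE) for the tested genes from ADGRE2 to NOTCH3, against the distance from the start of CASP14 in kb; horizontal bars span each gene. In TRB cells (red) ADGRE2, SLC1A6, CASP14 and SYDE1 lie between -2.40 and -1.23, while ILVBL lies at -0.13 and NOTCH3 at -0.44; the EV values (blue) lie between -0.42 and 0.17.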

How the data were processed

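RNA from 12 libraries was sequenced; per the labels' protocols the NEBNext Ultra II RNA kit was used. Per the submitters' processing notes, reads went through CASAVA 1.7, STAR 2.7, HTSeq 0.10 and DESeq2 on build hg38. Strand use and removal of ribosomal RNA are not given in the sources used here. The deposited files hold raw counts per gene, as whole numbers, and a table of normalized counts by the authors. That table, treated as a score, equalled the counts times 1 factor per library, rounded, to within 1. The rule was applied to the deposited normalized counts, and tests were run on the deposited raw counts.

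Lines that name no gene (31.9% to 39.2% of counted reads) were left out. The tests were run in R 4.3.3 with edgeR 4.0.16 (limma 3.58.1): genes kept by filterByExpr, TMM factors, robust estimation, quasi-likelihood F-tests with 8 residual degrees of freedom on 4 group means, and adjustment by Benjamini-Hochberg over 14549 genes at 0.05. CPM are TMM-scaled. The SE of a log2 fold change is its size divided by the square root of F. Steps were tested on simulated data. No pair of libraries of a group agreed within sampling noise.

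Positions come from GENCODE on hg38 (of 56832 names, 29515 are current symbols in it and 874 older ones) and promoters from RefSeq on GRCh38.p14. The members, lists, motifs and relatives were chosen with earlier results of these data known. Genes were named by extremes of ratio, level and vehicle ratio, by the smallest p in EV cells and among relatives, by nearness to the threshold, and by neighbours lowered 2-fold or more; other members, ILVBL and NOTCH3 were named with their values known. The values of 1 member, which is kept in all counts, are not reported here. Alternatives were DESeq2 1.42.0, RLE size factors, other filters on low counts, the compared groups alone, a replicate block, thinned counts, libraries left out and other limits of the rule; removal of a GC trend was added after seeing the data.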

Additional observations from a re-analysis of the deposited data

Results flagged for a closer look

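The 6 relatives with the smallest p for T3 in TRB cells also passed the test of the difference between the lines. This was the TRB effect minus the EV effect on the log2 scale, by edgeR's quasi-likelihood test with Benjamini-Hochberg adjustment. The TRB effect that chose them is part of that difference, so a difference was favoured in advance. Other relatives passed as well, such as ECE1 (0.77, adjusted p = 2.13e-14) and PTPRS (-0.77, 1.96e-13). The difference was -0.99 for ARID5B (adjusted p = 1.67e-20), -0.73 for AHNAK (5.48e-17) and -0.95 for SLC1A4 (3.1e-13), all with a deeper decrease in TRB cells. It was 1.55 for DUSP10 (adjusted p = 3.1e-13), 0.59 for DUSP4 (2.38e-10) and 0.85 for SLC4A7 (1.67e-12), with a larger increase in TRB cells.

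The clone-named member RP5-915N17.9 had a log2 fold change of 0.43 with T3 in EV cells, where every T3 library was above every vehicle library (33 to 37 normalized counts against 25 and 26), and was lower in every TRB T3 library (8 in each) than in every TRB vehicle library. This difference between the lines was not tested, since the rule used the TRB values; the EV effect alone missed the threshold (adjusted p = 0.363).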

How the results depend on the processing

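The rule took 18 genes with a ratio of 0.3, all of them members, 88 with 0.5, which included the 42, and 39 to 46 with each library left out in turn. Members called for T3 in EV cells numbered 15, all lower, 9 by DESeq2 (8 shared), 4 with libraries thinned to the shallowest (3 shared) and 9 to 14 with each EV library left out in turn; the other alternatives gave 14 to 19. With thinned counts 31 relatives were called in TRB cells (16 higher and 15 lower, of 80 tested) and 22 neighbours (7 and 15, of 70). Beyond these, the counts of members, relatives and neighbours stayed within 1.5 times under the alternatives run. No called value changed sign. Of the EV estimates that did not pass, 4 changed sign with thinned counts (MARVELD1 to 0.000383, ADAMTS1 to -0.0583, FIBCD1 to -0.526 and PCED1B to -0.0961), and that of PCED1B also with the GC trend removed (-0.0132) and ran from -0.0127 to 0.0485 with each EV library left out. Same-numbered libraries did not vary together (correlations of -0.124 to 0.0835), which cannot show whether they were made as matched sets. With a replicate block 16 members were called in EV cells, and 47 relatives and 43 neighbours in TRB cells. Thinning lost 12 of the 15 EV calls, which fewer counts per library can do by construction. Depth limits the lowest members: 11 had a lowest mean under 50.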

Other observations

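Some genes had a pattern like the members' but missed the level of 20. VNN2, a surface pantetheinase, averaged 1.33 normalized counts in TRB T3, 18.3 in TRB vehicle, 6 in EV T3 and 11.7 in EV vehicle libraries. CD180, a Toll-like receptor homologue of B cells, averaged 1, 14, 10.3 and 19.7 in the same groups, and the Wnt receptor FZD8 0.667, 14, 3.67 and 11. Lists drawn up around them did not share the pattern as a whole. Of 9 tested genes of vanins and coenzyme A synthesis 2 fell with T3 in TRB cells and 0 rose. Of 8 of CD180 and the Toll-like receptors 4 fell and 2 rose, and of 11 Frizzled and LRP receptors 6 fell and 2 rose. Of all genes tested 21.9% fell and 22.4% rose. The counts that fell include VNN2, CD180 and FZD8 themselves, so the choice of these genes raises them against that share. CD14, the lipopolysaccharide coreceptor, went the other way, with means of 1634 in TRB T3, 172 in TRB vehicle, 451 in EV T3 and 264 in EV vehicle libraries. These lists were drawn up with the low values of VNN2, CD180 and FZD8 known.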
